A study of Mus musculus with 15 samples.

Results

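The microRNAs (miRNAs) described here are the mature products of 5 hairpins, mir-532, mir-188, mir-362, mir-501 and mir-500, that lie inside the mouse gene Clcn5. They were chosen by name, as every miRNA of the deposited table whose name starts with miR-188, miR-362, miR-500, miR-501 or miR-532 and an arm, which gave 10 of the 1424 mature miRNAs listed. The rule used no measured value, but the group was proposed with results of these data known. Differences and calls are therefore given as a description, without p-values for single members, and nothing is read from the number of members called.

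Small RNA was sequenced from whole lungs of C57BL/6 mice, 11 weeks old per the labels, of both sexes, though the labels do not say which mouse was which. The mice either carried R213G on both alleles of EC-SOD, the antioxidant enzyme outside cells, which in this form binds the matrix less tightly, or were wild type (WT). Each received 100 uL of bleomycin at 1 U/mL in phosphate-buffered saline (PBS), or PBS alone, once into the trachea. Lungs were flushed with PBS and taken 7 days later. The groups were R213G bleomycin (4 libraries), WT bleomycin (4), R213G PBS (4) and WT PBS (3). Nothing in the labels says that libraries of a group came from separate cages or experiments, so the errors below measure the spread between these libraries. Values are on a log2 scale, read here as log2 of an equalized count with 1 added. Library sums of these counts ran from 18087289.8 to 21071254.7 in R213G bleomycin, from 19087572.0 to 21189039.9 in WT bleomycin, from 21775506.6 to 23232884.4 in R213G PBS and from 20688471.3 to 24759615.3 in WT PBS. They are not read depths, which the labels do not state.

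A miRNA gene is transcribed as part of a longer RNA, and the enzymes Drosha and Dicer cut out a hairpin and then a short duplex. The strand from the 5′ side of the hairpin is called 5p, the one from the 3′ side 3p. Either may be loaded into an Argonaute protein, where the seed, bases 2 to 8, pairs with target mRNAs. Clcn5 encodes ClC-5, a chloride/proton exchanger of endosomes that is mutated in Dent disease, a kidney disorder. Intronic miRNAs can be made from the host transcript or from a start site of their own, and the host mRNA was not measured in these libraries. Lung holds many cell types, and in whole lung a change in the number of cells of a type and a change in RNA per cell cannot be told apart.

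In GRCm38, Clcn5 lies on the minus strand at chrX:7153810-7319358, and the 5 hairpins sit within 10815 bases of a single intron, intron 3 of the longest transcript. In the order of transcription, mir-532 comes first, at chrX:7248402-7248497. After a gap of 345 bases follows mir-188, at chrX:7247989-7248056. The next 3 lie 5942 bases further on, with mir-362 at chrX:7241982-7242046, mir-501 at chrX:7241243-7241351 and mir-500 at chrX:7237683-7237774. The gaps between these last 3 are 630 and 3468 bases. No other miRNA of the table has a hairpin in Clcn5. All 5 hairpins lie upstream of the 2 short Clcn5 transcripts, which start at 7188714 and 7188673, so they belong to the introns of the long transcripts alone.

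The mature sequences, from RefSeq for GRCm38.p6, were found for 9 of the 10 members and are shown because shared seeds and near-identical arms bear on how the reads are told apart. Capitals mark the seed, and sequences run 5′ to 3′.
mmu-miR-188-5p: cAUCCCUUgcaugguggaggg
mmu-miR-188-3p: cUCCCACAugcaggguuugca
mmu-miR-532-3p: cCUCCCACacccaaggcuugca
mmu-miR-362-5p: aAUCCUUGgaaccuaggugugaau
mmu-miR-500-5p: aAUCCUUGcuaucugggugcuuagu
mmu-miR-501-5p: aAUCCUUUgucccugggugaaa
mmu-miR-362-3p: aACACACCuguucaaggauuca
mmu-miR-500-3p: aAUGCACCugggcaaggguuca
mmu-miR-501-3p: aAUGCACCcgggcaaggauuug

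Seeds were shared across hairpins of the same arm. miR-362-5p and miR-500-5p had the same seed, AUCCUUG, while that of miR-501-5p ended in another base. miR-500-3p and miR-501-3p also shared a seed, AUGCACC, and differed at 4 of 22 bases. Counted from the 5′ end of miR-500-3p, these were U9C, G18A, C21U and A22G, and 3 of them lie in the last 5 bases. How the authors assigned reads between these 3p arms is not stated in the labels, which leaves the split between them uncertain. miR-362-3p differed from miR-500-3p at 5 of 22 bases but had a seed of its own. The seed of miR-188-3p, UCCCACA, recurred in miR-532-3p shifted by 1 base, at positions 3 to 9. Both arms of mir-501, and of mir-188 the 5p arm, rose after bleomycin in both genotypes, as described below. These hairpins are shown with both mature arms in capitals.
mir-501: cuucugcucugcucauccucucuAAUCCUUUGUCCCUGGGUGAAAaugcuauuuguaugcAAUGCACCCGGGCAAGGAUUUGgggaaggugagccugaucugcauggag
mir-188: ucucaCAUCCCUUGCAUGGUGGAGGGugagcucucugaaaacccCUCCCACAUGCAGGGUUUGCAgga

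All 10 members were found above 0 in all 15 libraries and passed the filter on low values in each of them. miR-532-5p stood far above the rest, with a mean over all libraries of 13.20 on the log2 scale, the 96th highest of the 1424. The 4 next, miR-501-3p at 9.45, miR-500-3p at 9.20, miR-532-3p at 9.19 and miR-362-3p at 9.17, lay close together. Their ranges over all 15 libraries overlapped, no test between them was made, and their order changed with treatment, as described below. miR-188-5p followed at 8.44 and miR-362-5p at 7.27. The lowest were miR-501-5p at 5.70, miR-188-3p at 4.75 and miR-500-5p at 3.81. The authors' table is named for RPKM, a unit per length. Whether its values were divided by length was not checked, and length hardly differs between mature miRNAs. The unit is therefore an inference, and ligation and amplification can favour some sequences, so levels of different miRNAs compare only roughly.

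Together the 10 members made up a small share of the table. Their summed counts were 0.0652% ± 0.0037 of the library sum in R213G bleomycin lungs, 0.0691% ± 0.0040 in WT bleomycin lungs, 0.0510% ± 0.0023 in R213G PBS lungs and 0.0538% ± 0.0066 in WT PBS lungs (SD, n = 4, 4, 4 and 3). The ranges of the bleomycin and PBS libraries did not overlap within a genotype. miR-532-5p alone held 71.6% to 78.3% of the members' sum, and the library sums, the denominator of the share, were lower on average in the bleomycin groups, as given above.

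**Figure D1:**
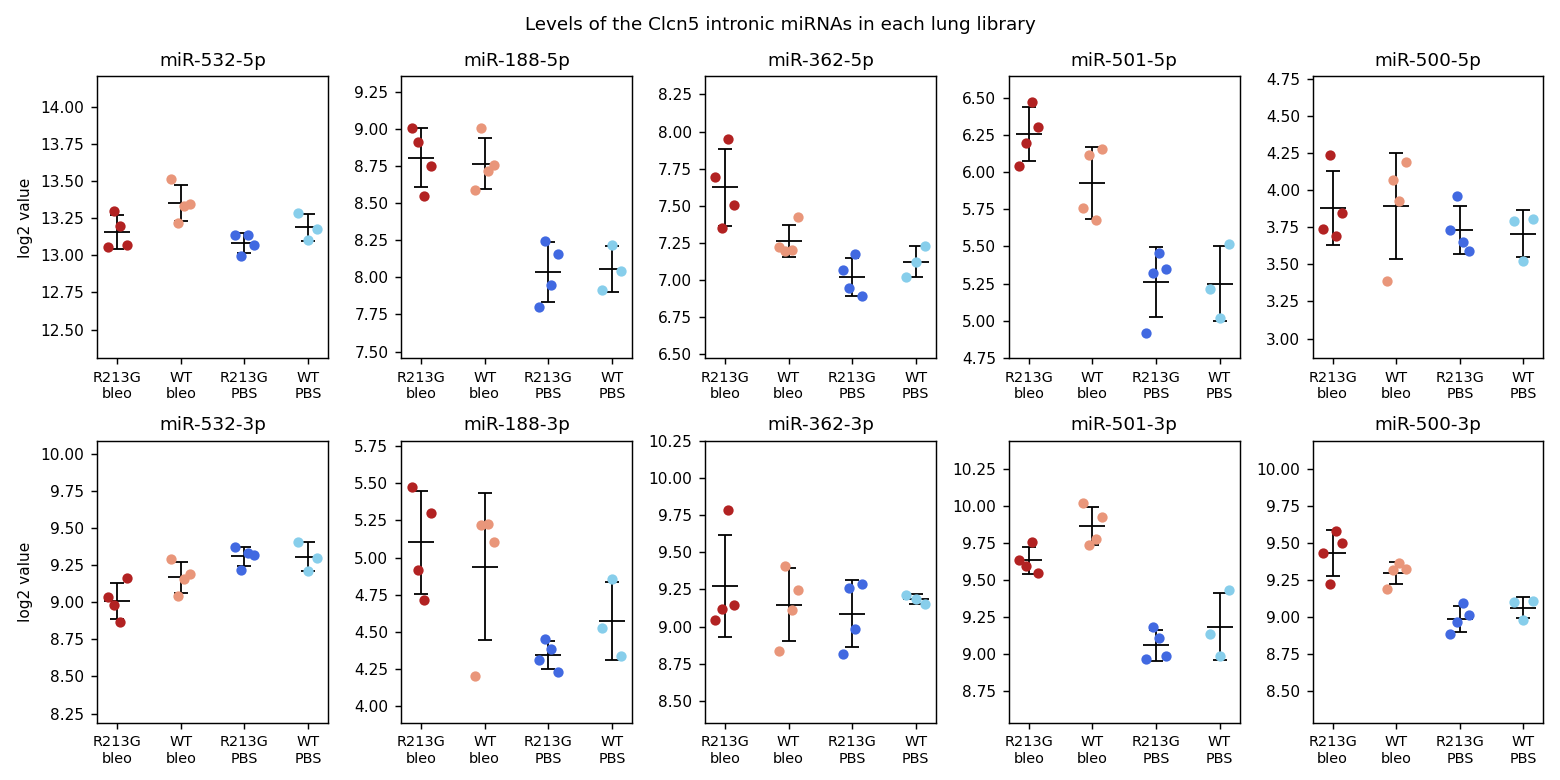
Level of each member, on the log2 scale of the deposited values, in each library of the 4 groups (points), with the group mean and SD (lines), 5p arms above and 3p arms below, in the order of transcription. Each panel spans the same log2 range. The 8 bleomycin libraries of miR-188-5p lie between 8.55 and 9.01, above all 7 PBS libraries, while those of miR-532-3p are lower or overlap with PBS.

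After bleomycin, miR-188-5p and both arms of mir-501 rose in both genotypes. In R213G, miR-188-3p, miR-362-5p and miR-500-3p also rose and miR-532-3p fell, while miR-532-5p, miR-362-3p and miR-500-5p passed the threshold in neither genotype. In R213G lungs, 6 of the 10 members rose and 1 fell at an adjusted p under 0.05 by limma, where 22.2% of the 818 tested miRNAs rose and 19.8% fell. In WT lungs, 3 members rose and 0 fell, where 16.4% of all tested rose and 10.3% fell. The median log2 difference of the members was 0.51 in R213G, against 0.05 over all tested miRNAs, and 0.21 in WT, against 0.05 over all. In R213G, all 4 bleomycin libraries lay above all 4 PBS libraries for 6 members and below them for 1, as for 21.9% and 17.4% of all tested. In WT the bleomycin libraries lay above the PBS libraries for 4 members and below for 0, as for 18.7% and 13.6% of all tested. The scaling of the libraries shifts all differences together. Equal library sums moved the median of all tested miRNAs to 0.27 in R213G and 0.21 in WT, and equal library medians moved it to -0.08 in R213G and -0.07 in WT. The members' medians moved with it, to 0.72 in R213G and 0.37 in WT with equal sums, and to 0.38 in R213G and 0.09 in WT with equal medians. In R213G the split of members called was 7 higher and 0 lower with equal sums, and 5 higher and 1 lower with equal medians.

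Of mir-188, the abundant 5p arm was higher in every bleomycin library of both genotypes. miR-188, in mouse bone marrow stromal cells, is known for tipping the choice between bone and fat cells. miR-188-5p stood at 9.01, 8.91, 8.55 and 8.75 in R213G bleomycin lungs and at 7.80, 8.25, 7.95 and 8.16 in R213G PBS lungs. In WT it stood at 8.59, 9.00, 8.72 and 8.76 after bleomycin and at 7.91, 8.22 and 8.04 after PBS. No bleomycin library fell into the range of the PBS libraries, in either genotype. The log2 difference was 0.77 ± 0.14 (SE) in R213G, or 1.70-fold, and 0.71 ± 0.15 in WT, or 1.64-fold. Both differences passed the threshold under every alternative run.

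The minor arm of the same hairpin, miR-188-3p, was less even. It stood at 5.48, 4.91, 4.72 and 5.30 in R213G bleomycin lungs and at 4.31, 4.45, 4.38 and 4.23 in R213G PBS lungs, without overlap, a log2 difference of 0.76 ± 0.24. WT values were 4.20, 5.22, 5.23 and 5.11 after bleomycin and 4.52, 4.86 and 4.34 after PBS. There 3 bleomycin libraries lay above all PBS libraries and replicate 1 lay below them all, and the difference of 0.37 ± 0.26 did not pass, nor did that of 0.61 without this library. The R213G call was lost without bleomycin replicate 1 (0.63) or replicate 4 (0.69), with equal library medians (0.62) and with quantile normalization (0.59).

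mir-501 responded on both arms. miR-501 is known in mouse from activated satellite cells, the stem cells of muscle. miR-501-5p had the largest difference of the members in R213G. It stood at 6.04, 6.20, 6.48 and 6.30 in R213G bleomycin lungs and at 4.91, 5.32, 5.46 and 5.35 in R213G PBS lungs. In WT lungs it was at 5.76, 6.12, 5.68 and 6.16 after bleomycin and at 5.22, 5.01 and 5.52 after PBS. The groups did not overlap in either genotype, though in WT the gap between the lowest bleomycin and the highest PBS library was small. This made a log2 difference of 1.00 ± 0.18 in R213G, or 1.99-fold, and 0.68 ± 0.19 in WT. The WT call was lost without PBS replicate 2, the lowest of its group, with a difference of 0.56.

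miR-501-3p, the major arm, was as clear as miR-188-5p. It stood at 9.63, 9.59, 9.76 and 9.55 in R213G bleomycin lungs and at 8.96, 9.18, 9.11 and 8.98 in R213G PBS lungs. The WT libraries read 10.02, 9.74, 9.78 and 9.92 after bleomycin and 9.13, 8.99 and 9.43 after PBS. Every bleomycin library was above every PBS library of its genotype. The difference on the log2 scale was 0.57 ± 0.11 in R213G and 0.68 ± 0.12 in WT, or 1.60-fold, and both kept their call under every alternative run.

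mir-500, the last hairpin in the order of transcription, gave smaller differences. miR-500-3p, the near copy of miR-501-3p, stood at 9.43, 9.22, 9.58 and 9.50 in R213G bleomycin lungs and at 8.88, 8.96, 9.09 and 9.01 in R213G PBS lungs. In WT, levels were 9.19, 9.32, 9.36 and 9.32 after bleomycin and 9.10, 8.98 and 9.11 after PBS. Again no group overlapped its PBS counterpart, but in WT the gap was narrow. Bleomycin minus PBS came to 0.45 ± 0.10 in R213G, which passed the threshold, and 0.23 ± 0.11 in WT, which did not, except with equal library sums (0.41). miR-500-5p, the lowest of the members, lay between 3.38 and 4.24 over all libraries and its groups overlapped, with 0.15 ± 0.23 in R213G and 0.19 ± 0.24 in WT, or -0.07 in R213G and -0.10 in WT with quantile normalization.

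Of mir-362, the 5p arm passed the threshold in R213G and the more abundant 3p arm in neither genotype. miR-362-5p, reported in human cancer cells to target CYLD, a deubiquitinase that restrains NF-kB, stood at 7.69, 7.35, 7.95 and 7.50 in R213G bleomycin lungs and at 7.07, 6.95, 7.17 and 6.89 in R213G PBS lungs. WT lungs gave 7.22, 7.20, 7.20 and 7.42 after bleomycin and 7.02, 7.12 and 7.23 after PBS. The R213G groups were apart and the WT groups overlapped. The log2 difference was 0.60 ± 0.14 in R213G, which passed, and 0.14 ± 0.15 in WT, which did not. miR-362-3p overlapped in both genotypes, with 0.19 ± 0.17 in R213G and -0.04 ± 0.18 in WT, the second of which was 0.14 with equal library sums. Without bleomycin replicate 3, whose 9.79 lay above the other R213G bleomycin libraries, the R213G value was 0.017, and without PBS replicate 1 it was 0.098. Without bleomycin replicate 1 the WT value was 0.070.

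mir-532, the first hairpin and the source of the most abundant member, had its abundant arm close to the same level in all groups. miR-532-5p, reported in human cancer cells to target the transcription factor RUNX3, stood at 13.05, 13.30, 13.20 and 13.07 in R213G bleomycin lungs and at 13.13, 13.00, 13.14 and 13.07 in R213G PBS lungs. In WT it stood at 13.52, 13.22, 13.34 and 13.35 after bleomycin and at 13.28, 13.10 and 13.18 after PBS. The groups overlapped in both genotypes. The log2 difference was 0.07 ± 0.09 in R213G and 0.17 ± 0.10 in WT, and neither passed, except with equal library sums (0.28 in R213G and 0.34 in WT), and the R213G value was -0.06 with equal library medians.

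miR-532-3p was the 1 member that fell at the threshold, in R213G. It stood at 9.03, 8.98, 8.87 and 9.16 in R213G bleomycin lungs and at 9.37, 9.22, 9.33 and 9.32 in R213G PBS lungs. In WT it stood at 9.29, 9.04, 9.15 and 9.19 after bleomycin and at 9.41, 9.21 and 9.30 after PBS. The R213G bleomycin libraries all lay below the PBS libraries, while the WT groups overlapped. The log2 difference was -0.30 ± 0.10 in R213G, a ratio of 0.813, and -0.14 ± 0.11 in WT, which did not pass and was 0.03 with equal library sums. The R213G call rests on a narrow margin. It was lost without bleomycin replicate 3 (-0.25), without PBS replicate 1 (-0.28), 3 (-0.29) or 4 (-0.30), and with equal library sums (-0.09).

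**Figure D2:**
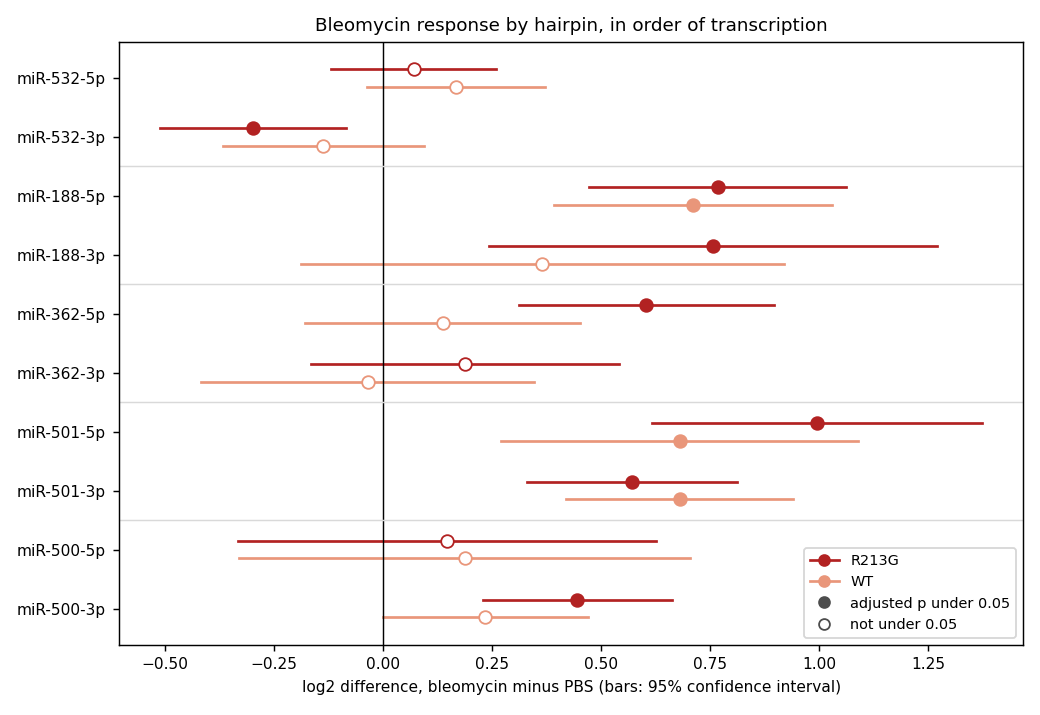
log2 difference between bleomycin and PBS lungs for each member, R213G above WT within each miRNA, with its 95% confidence interval (bars) from limma, hairpins in the order of transcription. Differences for mir-188 and mir-501 lie between 0.37 and 1.00, while those for mir-532 lie between -0.30 and 0.17.

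The authors' deposited table, from a test on group means, gives a q-value under 0.05 in R213G for 4 members, miR-188-5p, miR-500-3p, miR-501-5p and miR-501-3p. The authors' deposited table gives one for 0 members in WT, and by the authors' rank test the smallest q-value of a member in R213G was 0.109. That q-value belongs to members whose groups of 4 did not overlap, the strongest result a rank test can give at this size. No member could therefore have passed by the rank test in R213G. Those tests use each pair of groups alone, whereas the limma fit shares 1 estimate of the spread across all 4 groups.

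In ratios between members of the same library a single scale factor cancels, apart from the 1 added to each count. Quantile normalization is not such a factor and can change them. They were picked after the values were seen, so they are given without a test. miR-501-3p minus miR-532-3p averaged 0.62 ± 0.21 on the log2 scale in R213G bleomycin lungs, 0.70 ± 0.05 in WT bleomycin lungs, -0.25 ± 0.16 in R213G PBS lungs and -0.12 ± 0.22 in WT PBS lungs (SD). The bleomycin libraries ran from 0.39 to 0.89 in R213G and from 0.62 to 0.73 in WT. The PBS libraries ran from -0.41 to -0.04 in R213G and from -0.28 to 0.13 in WT. So of these members of like level, miR-501-3p stood above miR-532-3p in all 8 bleomycin libraries, and below it in all 4 R213G PBS libraries and on average in the WT PBS ones. miR-188-5p minus miR-532-5p, a comparison of neighbouring hairpins 345 bases apart, averaged -4.35 in R213G bleomycin lungs, -4.59 in WT bleomycin lungs, -5.05 in R213G PBS lungs and -5.13 in WT PBS lungs. The bleomycin minus PBS difference of that ratio was 0.70 in R213G and 0.54 in WT. Its libraries were apart between treatments in R213G. In WT they overlapped, at -4.93 to -4.22 after bleomycin and -5.37 to -4.89 after PBS. Between the near copies, miR-501-3p minus miR-500-3p averaged 0.20 in R213G bleomycin lungs, 0.57 in WT bleomycin lungs, 0.07 in R213G PBS lungs and 0.12 in WT PBS lungs. The treatments overlapped in R213G, at 0.05 to 0.37 after bleomycin and -0.03 to 0.22 after PBS, and were apart in WT. For miR-362-5p minus miR-532-3p the R213G means were -1.39 after bleomycin and -2.29 after PBS. The WT means were -1.91 after bleomycin and -2.18 after PBS. That ratio was apart between treatments in R213G and overlapped in WT.

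The balance between the arms of a hairpin likewise cancels a single scale factor. Here it is the 5p minus the 3p value on the log2 scale. mir-532 and mir-188 gave mostly their 5p arm in every library, and mir-362, mir-501 and mir-500 mostly their 3p arm. The mir-532 balance had the smallest SD of the 5 in every group but R213G bleomycin. It was 4.02, 4.32, 4.33 and 3.91 in R213G bleomycin lungs and 4.22, 4.18, 4.18 and 4.16 in WT bleomycin lungs. It was 3.76, 3.78, 3.81 and 3.76 in R213G PBS lungs and 3.88, 3.89 and 3.88 in WT PBS lungs. All 8 bleomycin libraries, at 3.91 to 4.33, lay above all 7 PBS libraries, at 3.76 to 3.89, with a difference of 0.37 in R213G and 0.30 in WT. Over the 234 hairpin names with both arms past the filter, 17.1% had all bleomycin libraries above all PBS libraries in R213G and 12.4% below. In WT, 11.5% lay above and 8.12% below, and 5.98% lay above in both genotypes. The shift of mir-532 was not large among them, since the median size of change over the 234 was 0.42 in R213G and 0.32 in WT.

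The balance of mir-501 was -3.38 ± 0.15 in R213G bleomycin lungs and -3.80 ± 0.19 in R213G PBS lungs (SD, n = 4 each), and these groups did not overlap. In WT it was -3.94 ± 0.29 after bleomycin and -3.94 ± 0.03 after PBS, and the groups overlapped. The balances of mir-188, mir-362 and mir-500 overlapped between bleomycin and PBS in both genotypes. The largest mean difference among these was 0.42, for mir-362 in R213G.

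**Figure D3:**
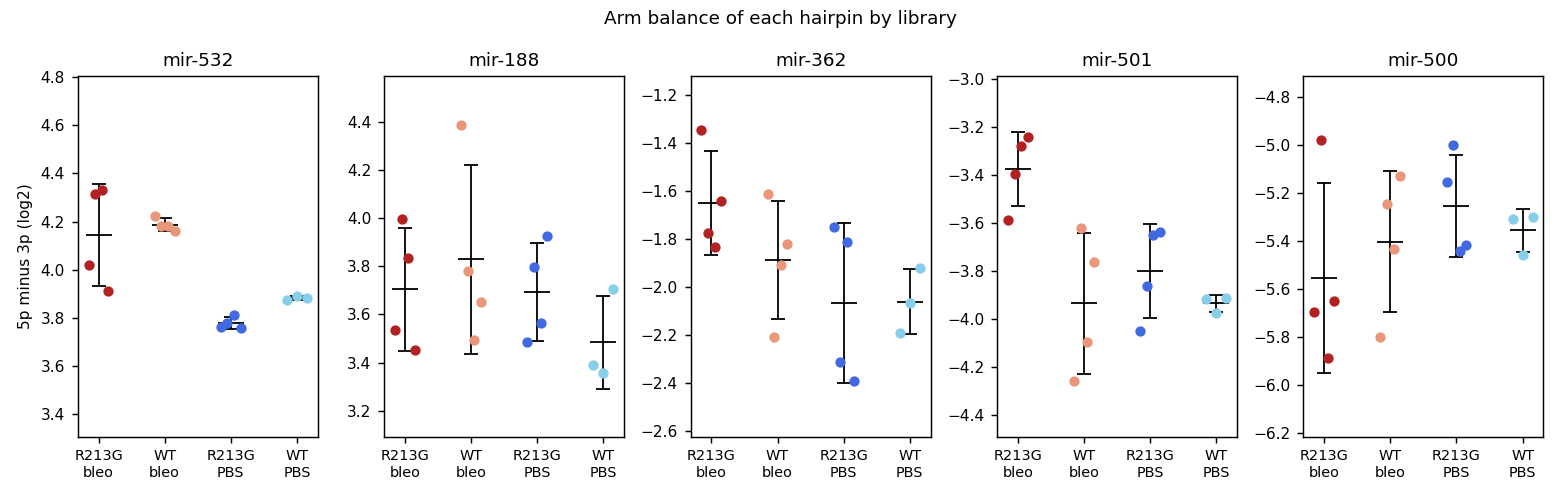
Arm balance of each hairpin, as the 5p minus the 3p value on the log2 scale, in each library (points) with the group mean and SD (lines). For mir-532 all bleomycin libraries lie at or above 3.91 and all PBS libraries at or below 3.89; mir-501 is apart in R213G and overlaps in WT, and the other 3 hairpins overlap in both.

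Whether the members differ between genotypes was asked in 3 ways, and limma called none of the 10 in any of them, as it called 0% of the 818 tested miRNAs. At an unadjusted p under 0.05, the R213G PBS against WT PBS comparison held 0 members and 44 miRNAs in all. The R213G bleomycin against WT bleomycin comparison held 2 members and 97 in all, and the difference between the responses held 1 member and 65 in all. After PBS, the R213G minus WT differences of the members ran from -0.23 to 0.03. After bleomycin they ran from -0.23, for miR-501-3p, to 0.36 ± 0.14, for miR-362-5p. The other member under the unadjusted threshold was miR-532-5p, at -0.20 ± 0.09. The R213G response minus the WT response ran from -0.16 to 0.47 ± 0.20, the highest again for miR-362-5p. It was 0.39 ± 0.36 for miR-188-3p and 0.32 ± 0.26 for miR-501-5p. Confidence intervals (95%) of the members reached a median of 0.32 to either side after PBS, 0.29 after bleomycin and 0.43 for the difference between responses. Calls made in R213G and not in WT are not shown to differ between the genotypes.

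Of the 1199 miRNAs of the table matched to a sequence, 1 outside Clcn5 passed the filter and has the seed of one of the 9 members with a sequence. miR-329-3p, a product of the Dlk1-Dio3 cluster that shares its seed with miR-362-3p, was higher after bleomycin in R213G by 0.81 ± 0.20 and differed by -0.09 ± 0.21 in WT. miR-362-3p itself did not pass in either genotype.

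The miRNAs outside Clcn5 whose pattern was most like the members' were found by their Pearson correlation with the mean z-score of the 10 members, over 15 libraries and 808 miRNAs. The libraries share the 4 groups, so the correlation takes in the difference between bleomycin and PBS. miR-16-1-3p came first (r = 0.96), then miR-184-3p, miR-21a-5p and miR-147-5p (0.95 each) and miR-511-3p (0.94). All 5 rose in both genotypes at the adjusted threshold, with miR-21a-5p, miR-184-3p and miR-511-3p differing by more than any member. miR-21a-5p, the miRNA best known for rising in injured and fibrotic lung, rose by 2.02 ± 0.13 in R213G and by 1.94 ± 0.14 in WT. miR-147-5p was near the floor after PBS, so the size of its rise is uncertain. It stood at 2.57 to 3.76 in R213G bleomycin lungs, 2.16 to 3.52 in WT bleomycin lungs, 0 to 0.85 in R213G PBS lungs and 0.087 to 1.77 in WT PBS lungs. miR-184-3p rose by 2.16 ± 0.19 in R213G and by 1.99 ± 0.20 in WT. miR-511-3p, whose hairpin lies in the macrophage gene Mrc1 and which is one of the myeloid markers below, rose by 1.74 ± 0.19 in R213G and by 1.25 ± 0.20 in WT. miR-16-1-3p, the closest in pattern, rose by 0.67 ± 0.13 in R213G and by 0.70 ± 0.14 in WT, within the range of the members. With each group's mean removed, so that only variation within groups counts, the order was miR-1191a (0.81), miR-3064-3p (0.80), miR-136-5p (0.77), miR-21a-5p (0.77) and miR-184-3p (0.76). These are the highest of the 808 and were not tested. miR-3064-3p stood low, with group means from 2.37 in R213G PBS lungs to 3.11 in R213G bleomycin lungs.

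Other miRNA clusters of the X chromosome gave the following differences after bleomycin. Products of the Htr2c introns, another set in the introns of a host gene, fell for 7 of 9 tested in R213G, with a median of -0.96, and for 9 of 9 in WT, with a median of -1.65. Those of the miR-322 to miR-450 cluster fell for 10 of 13 in R213G and 8 of 13 in WT, with medians of -0.69 in R213G and -0.66 in WT. In the miR-106a to miR-363 cluster, 1 of 7 tested rose in R213G and 4 of 7 in WT, with medians of 0.15 in R213G and 0.66 in WT. Over the 72 tested miRNAs of the X chromosome other than the members, 17 rose and 21 fell in R213G, and 17 rose and 17 fell in WT. The clusters just named were not taken out of these 72, so their miRNAs are counted again. No test of the difference between clusters was made.

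**Figure D4:**
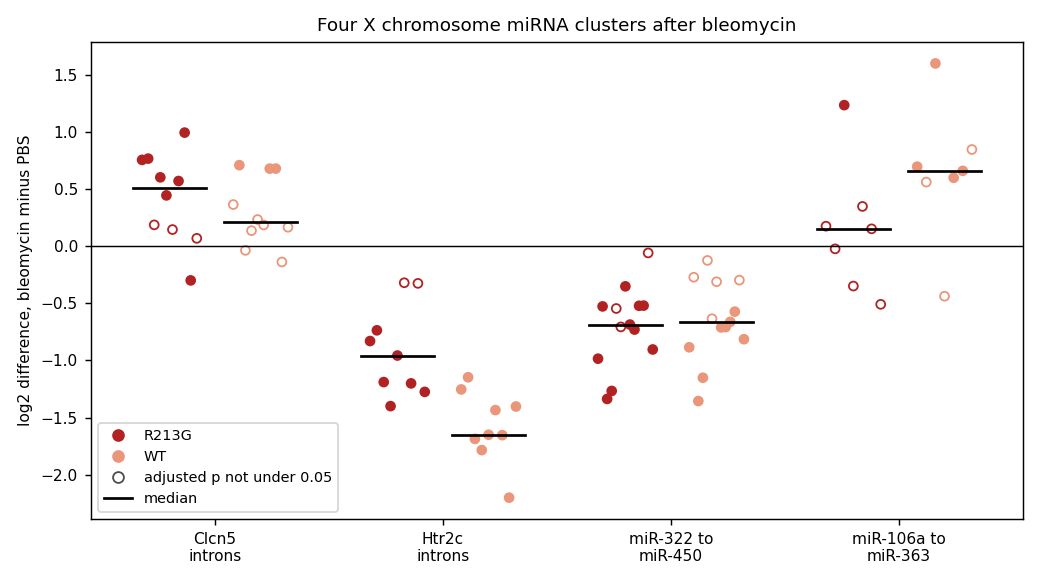
log2 difference between bleomycin and PBS lungs for each tested miRNA of 4 X chromosome clusters, R213G left of WT in each cluster (points, filled where the adjusted p is under 0.05), with the median (line). The members' medians, 0.51 in R213G and 0.21 in WT, lie above those of the Htr2c introns and the miR-322 to miR-450 cluster, which lie at or below -0.66. The miR-106a to miR-363 cluster has medians of 0.15 in R213G and 0.66 in WT, the second above that of the members.

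miRNAs taken here as markers of lung cell types are given beside the members, and their directions after bleomycin differed between cell types. The summed level of the 3 myeloid markers (miR-223-3p, miR-142a-3p and miR-511-3p) was 14.10 to 14.55 in R213G bleomycin lungs, 14.06 to 14.70 in WT bleomycin lungs, 13.71 to 14.03 in R213G PBS lungs and 13.42 to 13.76 in WT PBS lungs on the log2 scale. Of these 3, miR-142a-3p and miR-511-3p rose in each genotype. miR-223-3p passed in neither, at -0.18 ± 0.15 in R213G and 0.25 ± 0.16 in WT. The 3 epithelial markers (miR-200c-3p, miR-200b-3p and miR-205-5p) summed to 15.98 to 16.25 in R213G bleomycin lungs and 16.38 to 16.66 in R213G PBS lungs. In WT their sum was 16.15 to 16.40 after bleomycin and 16.48 to 16.58 after PBS. In each genotype 2 of the 3 fell, miR-205-5p with miR-200b-3p in R213G and miR-205-5p with miR-200c-3p in WT. The 3 striated muscle markers (miR-1a-3p, miR-133a-3p and miR-208b-3p) summed to 12.09 to 13.11 in R213G bleomycin lungs and 14.44 to 14.93 in R213G PBS lungs, where 3 of 3 fell. In WT their sum was 13.03 to 13.87 after bleomycin and 14.02 to 16.31 after PBS, where 2 of 3 fell. The 3 erythroid markers (miR-451a, miR-144-3p and miR-486a-5p) summed to 15.37 to 17.20 in R213G bleomycin lungs and 16.23 to 17.78 in R213G PBS lungs, where 1 fell. In WT their sum was 14.56 to 15.06 after bleomycin and 16.48 to 17.77 after PBS, where 2 fell. The pair taken here for lymphocytes (miR-150-5p and miR-155-5p) summed to 15.60 to 16.19 in R213G bleomycin lungs, 16.01 to 16.55 in WT bleomycin lungs, 16.36 to 16.72 in R213G PBS lungs and 15.86 to 16.21 in WT PBS lungs. In that pair miR-155-5p rose in both genotypes, while miR-150-5p fell in R213G and did not pass in WT. The ciliated cell pair (miR-34c-5p and miR-449a-5p), at 16.55 to 17.40 over all libraries, overlapped between treatments in both genotypes, but miR-449a-5p alone rose by 0.91 ± 0.22 in R213G and by 1.21 ± 0.24 in WT. The summed smooth muscle pair (miR-143-3p and miR-145a-5p), at 21.16 to 21.55 in R213G bleomycin lungs and 21.51 to 21.77 in R213G PBS lungs, overlapped between treatments in both genotypes. Of that pair, miR-143-3p fell in R213G (-0.32 ± 0.10) and miR-145a-5p in WT (-0.52 ± 0.14). The summed endothelial pair of miR-126a arms, at 19.63 to 20.24 over all libraries, overlapped between treatments, but miR-126a-3p alone fell in R213G (-0.41 ± 0.13). No marker was at 0 in any library, and the part of cell composition in the members' differences was not tested.

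Library names carry tag numbers whose meaning the labels do not give. In R213G they form an unbroken run, which was cut here at its middle into 2 blocks of 4 consecutive numbers. The labels do not mark such blocks. Each holds 2 bleomycin and 2 PBS libraries, and in each the bleomycin numbers are the lower ones. Tag order and treatment therefore cannot be told apart inside a block. The response can still be given within each block. In the block of lower and then of higher numbers, it was 0.91 and 0.63 for miR-188-5p, 1.08 and 0.92 for miR-501-5p, 0.66 and 0.49 for miR-501-3p and 0.52 and 0.37 for miR-500-3p. It was 0.75 and 0.77 for miR-188-3p, 0.70 and 0.51 for miR-362-5p and -0.40 and -0.20 for miR-532-3p. For each of the 7 members called in R213G, all bleomycin libraries lay on the same side of all PBS libraries. Their direction in both blocks was therefore fixed in advance and is no further check. The groups of miR-362-3p, which was not called, overlapped, and it gave 0.51 and -0.14. In WT the lower numbers are all bleomycin and the higher all PBS, and no number is shared between genotypes, so there tag and group cannot be told apart.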

How the data were processed

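Per the labels' protocols, lung RNA was purified by miRNeasy and sequenced as small RNA on an Illumina instrument. Bowtie2 2.3.2, SAMtools 1.9 and edgeR are named per the submitters' processing notes; no build or miRNA annotation of the counting is named there. The deposited table holds log2 values per library, the authors' log2 fold changes, and their p-values and q-values. From the values, the log2 scale was taken as the logarithm of 1 plus an equalized count; this is an inference, and read counts could not be recovered, so no counting interval is given and the edgeR test planned for counts was not run.

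limma 3.58.1 (R 4.3.3) was fitted to all 15 libraries, using 4 group means and a trend of the spread with intensity. Only miRNAs whose equalized count passed 5 in 3 or more libraries were tested (818). Benjamini-Hochberg adjustment was done within each of 5 contrasts, and calls were made at an adjusted p under 0.05. The script was tested on simulated data. The members, lists, tests and alternatives were chosen with earlier results of these data known. Named miRNAs are all members, those sharing a member's seed, and the 5 with the highest correlation by each of the likeness measures; clusters and markers are given by counts and sums. Sequences and positions come from RefSeq (GRCm38.p6), transcripts from the GRCm38 annotation. Arm balances were set against hairpins of the whole table after the values were seen. No pair of libraries was identical, and 0 columns of library values were left unmapped.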

Additional observations from a re-analysis of the deposited data

Results flagged for a closer look

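Of the 30 sets of values checked (10 members in each of the 3 groups of 4 libraries), 3 held a library far from the others of its group by Dixon's criterion; chance alone gives about 1 in 20. miR-188-3p stood at 4.20 in WT bleomycin replicate 1, below the 5.11 to 5.23 of the other WT bleomycin libraries. miR-362-5p stood at 7.42 in WT bleomycin replicate 4, above the 7.20 to 7.22 of the others, a set whose whole spread is small. miR-362-3p stood at 9.79 in R213G bleomycin replicate 3, above the 9.04 to 9.15 of the others. The 3 values fall in 3 different libraries, and in each of them the other arm of the same hairpin did not meet the criterion. The cause was not tested.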

How the results depend on the processing

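The number of members called after bleomycin was 7 in R213G and 3 in WT. Among the alternatives run (filters, pseudocount, scaling, trend, weights, fits on the compared groups, a tag term in R213G and an adjusted p under 0.1), the one that moved a count by over 1.5 times was equal library sums, which gave 5 in WT, adding miR-532-5p and miR-500-3p; it raises every difference together. Leaving out 1 library at a time gave 6 to 7 in R213G and 2 to 3 in WT. The genotype comparisons and the difference between responses stayed at 0 throughout. Over all tested miRNAs, equal sums gave 236 higher and 79 lower in R213G and 190 and 39 in WT, and equal medians gave 148 and 199 in R213G and 110 and 121 in WT. As reported there were 182 and 162 in R213G and 134 and 84 in WT. miR-500-5p gave no value under the stricter filter, and no tag term could be made in WT. Deviations of same-numbered libraries from their group means correlated between -0.14 and 0.26, and the labels give no pairing. The replicate number as a block left 7 members called in R213G, 3 in WT and 0 in the other contrasts. Among members that were not called, leaving out 1 library moved some small differences by over 1.5 times, in WT those of miR-188-3p, miR-362-5p, miR-362-3p, miR-532-3p and miR-500-5p and in R213G those of miR-362-3p, miR-532-5p and miR-500-5p, with none passing the threshold. Read depth is not given, so how far depth limits the lowest members, miR-188-3p and miR-500-5p, is unknown.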
